A study of Mus musculus with 12 samples.

Results

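The plasminogen activator system was examined through 5 genes of the deposited count table, chosen by symbol out of the 55487 Ensembl genes it lists. They are Plat and Plau, which encode the tissue-type and urokinase-type plasminogen activators, Plaur, which encodes the urokinase receptor, and the serpin genes Serpine2 and Serpinf1. The libraries were made from C2C12 myotubes, the multinucleated cells that form when this mouse myoblast line fuses in low serum. After 5 days of differentiation at 2% horse serum, the myotubes spent 24 h in medium containing either 4% STEM or 4% horse serum, and each group held 6 libraries (horse serum libraries 1 to 6 and STEM libraries 7 to 12). STEM is a cell-free solution of proteins, amino acids, vitamins and minerals that holds factors secreted by partially differentiated human embryonic stem cells. It replaced horse serum, so the addition of STEM and the removal of horse serum cannot be told apart. All libraries come from a single cell line, and the labels do not say whether they came from separate cultures, so p-values measure only the spread between these libraries.

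Plasminogen circulates as an inactive zymogen that is made mainly in the liver. Its activators cut it to plasmin, a broad serine protease that dissolves fibrin, degrades matrix proteins and activates other matrix proteases and latent growth factors. Urokinase works largely at the cell surface, held there by its receptor, while the tissue-type activator works best on fibrin. In muscle, urokinase is known for its part in regeneration after injury, and serpins restrain both activators. Serpine2 encodes protease nexin 1, a serpin that inhibits thrombin, urokinase and the tissue-type activator. Serpinf1 encodes pigment epithelium-derived factor, which has the serpin fold but is not known to inhibit proteases, so calling it an inhibitor of this system goes beyond its known activity.

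Total counts ranged from 13285472 to 18254882 in the horse serum libraries and from 14909485 to 24536264 in the STEM libraries. All 10 myotube markers examined were detected, from Ckm and Acta1 to Ttn and Myog, whereas 4 of 4 endothelial markers and 4 of 6 macrophage markers stayed below 1 CPM (the count scaled to the normalised library total) in every library. Markers of the labelled cell type were thus present in all 12 libraries. Of the remaining macrophage markers, Cd68 was at 2 to 4.66 CPM with horse serum and 3.31 to 4.54 CPM with STEM, and was not called. Csf1r, at 0.0512 to 0.544 and 0.404 to 1.23 CPM, had too few counts to be tested. Without horse serum library 6 it was tested and called higher with STEM (log2 fold change 1.45 ± 0.36 SE, edgeR adjusted p = 0.00234). In that fit 26.3% of all genes tested were called higher. Horse serum library 6 stood apart. It was the lowest of its group for 10 of the 10 myotube markers, and its summed level of 5 markers of proliferating cells, 1060 CPM, was above the 627 to 948 CPM of the other horse serum libraries. Each result below is therefore given with this library and, where it matters, without it.

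The 5 genes are protein coding and carry no overlapping gene in the GENCODE annotation of GRCm38. On this build Plat (ENSMUSG00000031538) lies on chromosome 8, 22757727 to 22782844, and Plau (ENSMUSG00000021822) on chromosome 14, 20836660 to 20843385. The receptor gene Plaur (ENSMUSG00000046223) lies on chromosome 7, 24462484 to 24475968. Of the serpin genes, Serpine2 (ENSMUSG00000026249) lies on chromosome 1, 79794197 to 79861180, and Serpinf1 (ENSMUSG00000000753) on chromosome 11, 75409769 to 75422701. Coordinates cover the whole gene, and the counts are sums over its exons.

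Promoter sequence from RefSeq (GRCm38.p6) was matched for 3 of the 5 genes, Plaur, Serpine2 and Serpinf1. It is shown to describe the makeup of these promoters, which differed. Each run is read 5′ to 3′ on the strand of its gene and ends at the RefSeq start or, where GENCODE places an exon earlier, just before that exon. The Serpine2 run lies inside the gene as GENCODE annotates it, whose most upstream start is at 79861180. No sequence before that upstream start was examined. Capitals mark an AP-1 site, a GC box or a CAAT box.
Plaur, chr7:24462233-24462482, plus strand: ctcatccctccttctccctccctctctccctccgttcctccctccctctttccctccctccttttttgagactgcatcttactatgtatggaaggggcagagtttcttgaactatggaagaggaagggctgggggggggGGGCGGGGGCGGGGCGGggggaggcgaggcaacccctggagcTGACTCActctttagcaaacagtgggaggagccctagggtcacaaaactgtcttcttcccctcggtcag
Serpine2, chr1:79858697-79858915, minus strand: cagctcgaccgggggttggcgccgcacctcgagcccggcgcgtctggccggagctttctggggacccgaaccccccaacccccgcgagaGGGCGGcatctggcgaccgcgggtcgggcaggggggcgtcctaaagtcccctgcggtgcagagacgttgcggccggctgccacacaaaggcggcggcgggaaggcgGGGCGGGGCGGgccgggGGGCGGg
Serpinf1, chr11:75422702-75422873, minus strand: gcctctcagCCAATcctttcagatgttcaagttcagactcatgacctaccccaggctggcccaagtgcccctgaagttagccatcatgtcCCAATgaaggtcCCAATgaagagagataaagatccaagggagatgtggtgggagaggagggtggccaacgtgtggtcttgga

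Motifs were searched on both strands in the whole 250 bases before each RefSeq start, exonic bases included. The letters searched were TGANTCA for AP-1, GGGCGG for the GC box, CCAAT for the CAAT box, TATAAA for the TATA box and TGACGTCA for the cyclic AMP response element, and GC boxes may overlap each other. The Plaur promoter held an AP-1 match, which begins 69 bases before the start, and 3 GC boxes. Serpine2 held 6 GC boxes, and its printed run is 77.6% G and C. Serpinf1 held 3 CAAT boxes and no other match. Of 32851 promoter windows of the same length, 6.75% held the AP-1 letters, 32.7% the GC box and 33.8% the CAAT box, while the TATA and cyclic AMP letters, present in 12.4% and 1.55% of windows, were not found in these 3. A match describes letters only and was not tied to any change in level.

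Levels of different genes were compared as RPKM, the CPM per kilobase of exon. With horse serum, Serpinf1 had the highest level of the 5 genes, 142 ± 8.04 RPKM, followed by Plau at 44.3 ± 6.31, Plat at 16.1 ± 0.96, Plaur at 2.41 ± 0.778 and Serpine2 at 1.3 ± 0.472 RPKM (SD, n = 6). Plau exceeded Plat in 6 of 6 horse serum libraries, and Plaur exceeded Serpine2 in 6 of 6.
With STEM, the order at the top was kept by Serpinf1 at 163 ± 5.1 RPKM, but the activators came close together, Plau at 32.5 ± 3.4 and Plat at 29.3 ± 2.19 RPKM (SD, n = 6). Their ranges overlapped, although Plau was still the higher of the pair in 5 of 6 STEM libraries. Plaur (1.88 ± 0.237 RPKM) and Serpine2 (1.79 ± 0.147 RPKM) also lay within each other's spread, with Plaur higher in 4 of 6 STEM libraries. Exon lengths join all annotated transcripts, so levels per length may be understated. This concerns Serpine2, at 8287 bases, and Plat, at 6241 bases against 2367 for Plau. Before division by length, Plat and Plau averaged 101 and 105 CPM with horse serum, and 183 and 76.8 CPM with STEM. The order of the activators within a group therefore depends on the lengths used.

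**Figure D1:**
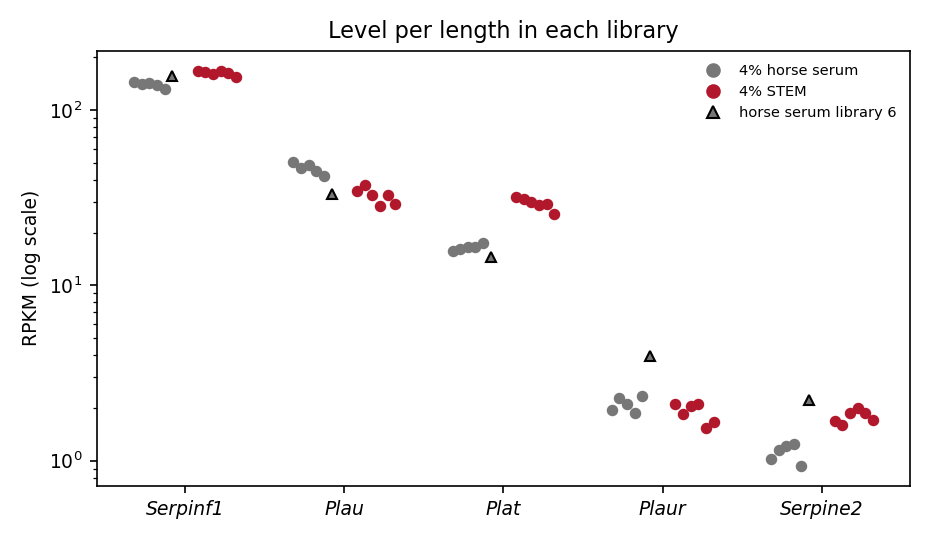
RPKM on a log scale (vertical) for the 5 genes (horizontal), with a point for each of the 12 libraries and a triangle for horse serum library 6. With STEM, Plat and Plau lie at about the same height, between 25.5 and 37.3 RPKM, whereas with horse serum they are apart in every library. Heights depend on the exon length used for each gene.

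Plat, the gene of the tissue-type activator, was higher with STEM. In the horse serum libraries it ranged from 90.8 to 109 CPM with a median of 102, and in the STEM libraries from 159 to 198 CPM with a median of 184. Every STEM library was above every horse serum library, and the lowest of all was horse serum library 6. The means were 101 ± 5.99 CPM and 183 ± 13.7 CPM (SD, n = 6), a 1.82-fold rise. The log2 fold change was 0.86 ± 0.057 (SE, adjusted p = 9.57e-08 over all genes tested, quasi-likelihood test of edgeR). Of all 14175 genes tested, 18.9% were called higher with STEM, 17.4% lower and 36.4% in either direction. The libraries of the groups were fully separated for 17.2% of them (8.68% higher and 8.52% lower with STEM), and Plat was the only gene of the 5 with such separation.

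Plau, the gene of urokinase, changed in the opposite direction. It ranged from 78.2 to 120 CPM with horse serum (median 108) and from 66.8 to 88.4 CPM with STEM (median 77.7). Its level in horse serum library 6, the 78.2 CPM, lay within the STEM range, and the other horse serum libraries (99.3 to 120 CPM) lay above it. The mean fell from 105 ± 14.9 CPM to 76.8 ± 8.06 CPM (SD, n = 6), 1.36-fold lower with STEM. Its log2 fold change was -0.45 ± 0.096 (SE, edgeR adjusted p = 0.00227), and -0.52 ± 0.068 (SE, edgeR adjusted p = 1.25e-05) without library 6.

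As a ratio of RPKM within each library, which does not depend on the scaling between libraries, Plat stood at 0.31 to 0.44 of Plau with horse serum (mean 0.369 ± 0.0495 SD, n = 6). With STEM the ratio was 0.832 to 1.01 (mean 0.906 ± 0.0606 SD, n = 6). The groups did not overlap, and library 6 had the highest ratio of the horse serum group. The size of this ratio depends on the exon lengths used, but its change between groups does not. No test was made on this ratio, because it joins genes that were chosen with earlier results of these data known. In bulk RNA, a change in the share of a kind of cell and a change in the RNA per cell cannot be told apart. Between groups, markers of proliferating cells moved in the direction of Plau, with 4 of 5 lower under STEM. Their sums were 627 to 1060 CPM with horse serum and 469 to 578 CPM with STEM. Library 6 departed from this parallel. Its marker sum of 1060 CPM lay above the 627 to 948 CPM of horse serum libraries 1 to 5. Its Plau level of 78.2 CPM lay below their 99.3 to 120 CPM. Of the 10 myotube markers, Mymk, the gene of the fusion protein myomaker, was higher with STEM (165 ± 13.3 and 212 ± 15.1 CPM, SD, n = 6). Myog, the gene of myogenin, was lower (907 ± 38.3 and 745 ± 83.8 CPM), as was Myh8, the gene of perinatal myosin heavy chain (585 ± 259 and 246 ± 36.6 CPM), and the other 7 did not pass. Over all genes tested, 18.9% were called higher and 17.4% lower. Without library 6, 1 myotube marker was called higher and 5 lower, where 26.3% of all genes tested were called higher and 24.5% lower. The part of these markers in the fall of Plau was not tested.

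**Figure D2:**
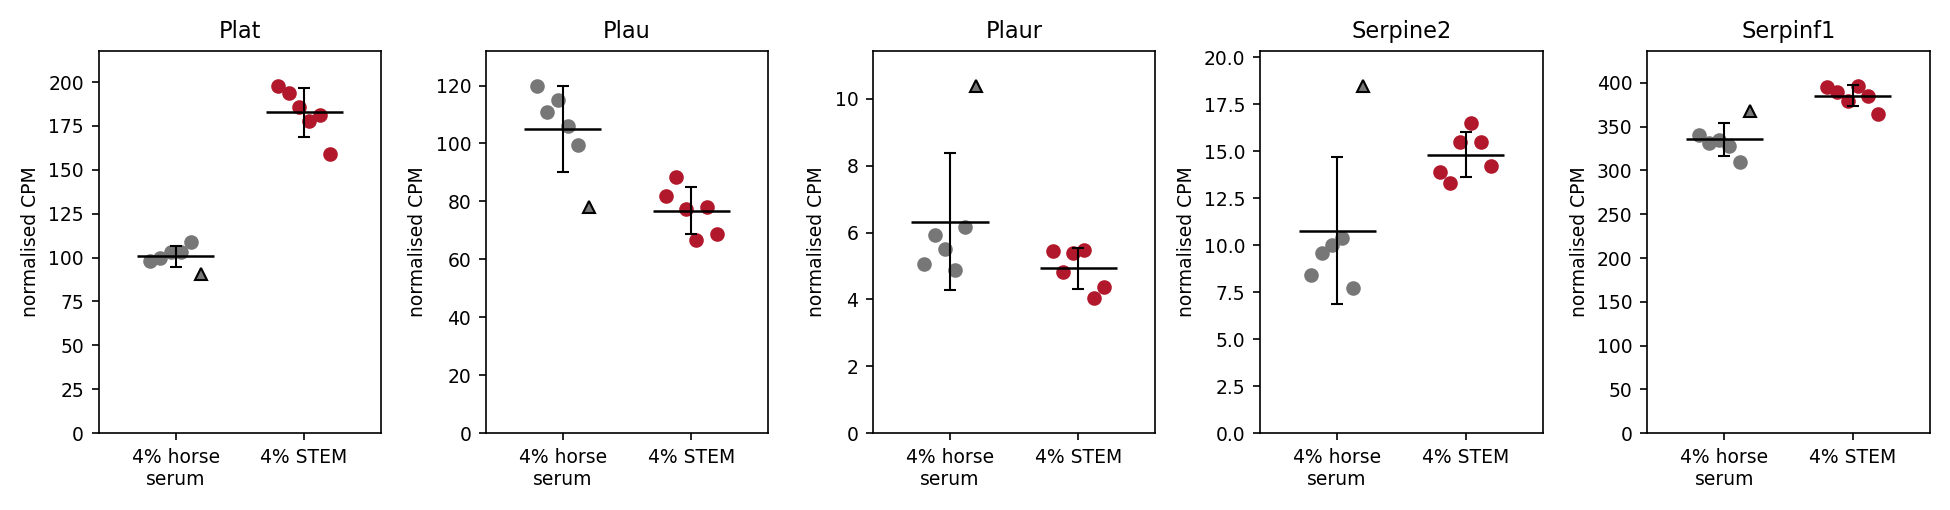
Normalised CPM (vertical, from 0) of the 5 genes in the 6 horse serum and 6 STEM libraries, with the mean (line) and SD (bar) and a triangle for horse serum library 6. Plat is separated by group, and in Plaur and Serpine2 library 6, at 10.4 and 18.5 CPM, lies above every other library.

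The receptor gene Plaur did not pass the test. It was measured on 65 to 202 counts per library, at 4.89 to 10.4 CPM with horse serum (median 5.72) and 4.04 to 5.48 CPM with STEM (median 5.11). The ranges overlapped, and horse serum library 6 alone reached 10.4 CPM, the others staying between 4.89 and 6.16 CPM. The means were 6.32 ± 2.04 and 4.93 ± 0.619 CPM (SD, n = 6), with a log2 fold change of -0.37 ± 0.17 (SE, edgeR adjusted p = 0.111) and a 95% interval from -0.75 to 0.02. Without library 6 the log2 fold change was -0.16 ± 0.11 (SE, edgeR adjusted p = 0.274). The number of urokinase transcripts per receptor transcript, as a ratio of RPKM, was 17.8 to 26.2 in horse serum libraries 1 to 5, 8.35 in library 6 and 13.5 to 21.3 with STEM.

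**Figure D3:**
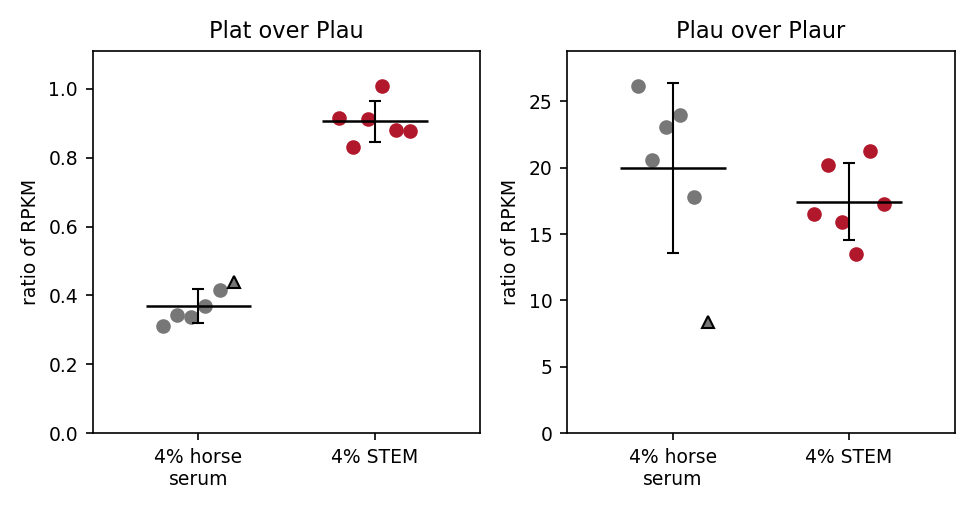
Ratio of RPKM (vertical, from 0) within each library, for Plat over Plau (left) and Plau over Plaur (right), by group, with mean (line), SD (bar) and a triangle for horse serum library 6. Plat over Plau separates the groups, at 0.31 to 0.44 and 0.832 to 1.01, while Plau over Plaur overlaps and is lowest, at 8.35, in library 6.

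Whether Serpine2, the gene of protease nexin 1, was called depended on horse serum library 6 and on the test used. Its level was 7.73 to 18.5 CPM with horse serum (median 9.79) and 13.3 to 16.5 CPM with STEM (median 14.8). Library 6 had the 18.5 CPM, above every STEM library, while the other 5 horse serum libraries (7.73 to 10.4 CPM) were below every STEM library. Over all 12 libraries the means were 10.8 ± 3.92 and 14.8 ± 1.22 CPM (SD, n = 6), and the log2 fold change of 0.45 ± 0.17 (SE, edgeR adjusted p = 0.0593) did not pass edgeR's test. Without library 6 it was 0.68 ± 0.089 (SE, edgeR adjusted p = 3.61e-06), a fit in which 50.8% of all genes tested were called. With DESeq2 and limma-voom on all 12 libraries the adjusted p was 0.037 and 0.0337.

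Serpinf1, the gene of pigment epithelium-derived factor, rose by a small and well-measured amount. It was counted 4292 to 9696 times per library, at 310 to 368 CPM with horse serum (median 333) and 365 to 397 CPM with STEM (median 387). The groups overlapped through library 6, whose 368 CPM was above the lowest STEM library, and the other horse serum libraries did not exceed 341 CPM. The mean went from 336 ± 19 to 385 ± 12 CPM (SD, n = 6), a 1.15-fold rise with a log2 fold change of 0.2 ± 0.046 (SE, edgeR adjusted p = 0.00346). Leaving out library 6 gave 0.23 ± 0.039 (SE, edgeR adjusted p = 7.59e-05). In all, 3 of the 5 genes were called, 2 higher and 1 lower with STEM, against the 36.4% of all genes tested.

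The rest of the pathway was described with a list of 32 genes taken from known roles. The list was chosen with earlier results of these data known, so its counts are descriptive only. Of these, 19 passed the filter on low counts, and 11 of the 19 were called, 1 higher and 10 lower with STEM, where 17.4% of all genes tested were called lower. Their median log2 fold change was -0.36, against 0.01 over all genes tested. Without horse serum library 6 the count was 13 of 19, 1 higher and 12 lower, with a median of -0.34, where 26.3% of all genes tested were called higher and 24.5% lower. The added calls were Eno1, a plasminogen receptor better known as an enolase, and Vldlr, a clearance receptor. Without library 6 their log2 fold changes were -0.29 ± 0.058 and -0.54 ± 0.062 (SE, edgeR adjusted p = 0.000349 and 2.91e-06). Over all 12 libraries they were -0.19 and -0.37 (edgeR adjusted p = 0.204 and 0.23). Library 6 had 1010 CPM of Eno1 and 80.1 CPM of Vldlr, against 1570 to 1790 and 219 to 273 CPM in the other horse serum libraries. Full separation of the groups was seen for 5 of the 19 genes (26.3%), beside 17.2% of all genes tested.

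**Figure D4:**
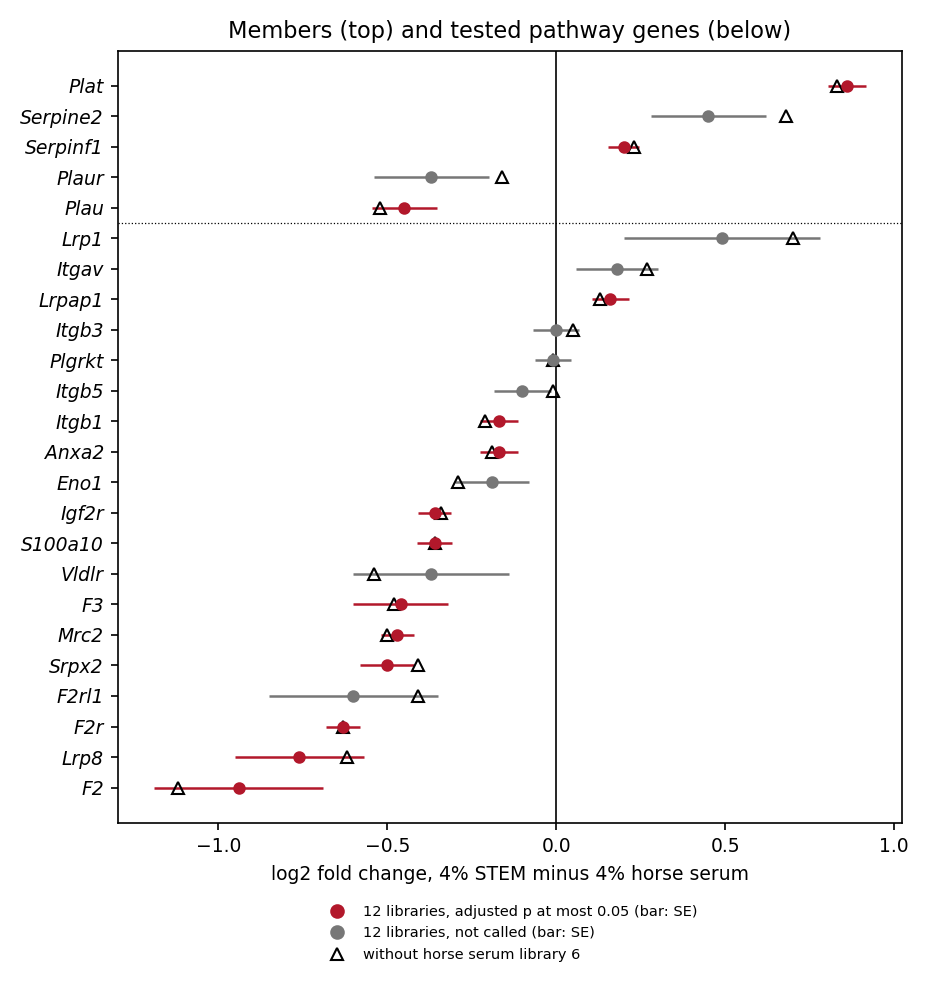
Log2 fold change of STEM minus horse serum (horizontal) for the 5 genes (top) and the 19 tested genes of the pathway list (below), with the standard error as a bar, called genes in red and the value without horse serum library 6 as a triangle. Plat has the highest value at 0.86 and F2 the lowest at -0.94.

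Plasminogen itself was not detectably transcribed. Plg had at most 3 counts in any library, at or under the floor of 3 counts that a count of 0 allows. Of the 13 genes of the list that did not pass the filter, the highest had 10 counts in any library (F12, the gene of coagulation factor XII), and Cpb2 and Klkb1 had 0 counts in all 12 libraries. The others of this low group include the plasmin inhibitor genes Serpinf2 and A2m, the genes Serpinb2, Serpini1 and Serpina5, whose serpins can inhibit the activators, and Hpn and St14, whose proteases can activate urokinase. F12 itself was at 0 to 5 counts with horse serum and 5 to 10 with STEM (0.126 ± 0.11 and 0.499 ± 0.141 CPM, SD, n = 6). When no filter was set on low counts it was called higher with STEM, with a log2 fold change of 1.87 ± 0.49 (SE, edgeR adjusted p = 0.00449), and DESeq2 called it too (adjusted p = 0.00329), while the other low genes were called by neither. The floor covers counting error only.

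Of 4 plasminogen receptor genes, all tested, 2 were lower with STEM, where 17.4% of all genes tested were lower. Without horse serum library 6, Eno1 was called lower too, where 24.5% of all genes tested were. S100a10, whose protein pairs with annexin A2 to bind plasminogen and the tissue-type activator, was at 294 to 337 CPM with horse serum and 224 to 274 CPM with STEM. The groups did not overlap, and the log2 fold change was -0.36 ± 0.053 (SE, edgeR adjusted p = 0.00012). Anxa2, the gene of its partner, showed a log2 fold change of -0.17 ± 0.056 (SE, edgeR adjusted p = 0.0291), with overlapping groups. This call was lost when horse serum library 1, 2 or 3 or STEM library 9, 10, 11 or 12 was left out. Plgrkt, the gene of a transmembrane plasminogen receptor, averaged 24.5 ± 1.47 CPM and 24.4 ± 0.73 CPM in the horse serum and STEM groups (SD, n = 6). Its log2 fold change was -0.01, with a 95% interval from -0.13 to 0.11.

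Partners of the urokinase receptor were the largest role in the list, with 7 of 8 genes tested, 4 lower and none higher with STEM, beside the 17.4% of all genes that were lower. Mrc2, which encodes a collagen uptake receptor that associates with the urokinase receptor, went from 135 ± 7.88 to 97.2 ± 4.91 CPM (SD, n = 6) without overlap, a log2 fold change of -0.47 ± 0.049 (SE, edgeR adjusted p = 5.38e-06). Igf2r, the gene of the mannose 6-phosphate receptor, which binds the urokinase receptor and latent TGF-beta, went from 267 ± 13.8 to 207 ± 11.8 CPM, also without overlap (log2 fold change -0.36 ± 0.049 SE, edgeR adjusted p = 5.14e-05). Srpx2, the gene of a secreted ligand of the urokinase receptor, went from 150 ± 23.5 to 106 ± 3.24 CPM. All its STEM libraries (101 to 109 CPM) were below its horse serum libraries (132 to 196 CPM), of which library 6 was the highest, and its log2 fold change was -0.5 ± 0.08 (SE, edgeR adjusted p = 0.000225).
The integrin subunit gene Itgb1 showed a log2 fold change of -0.17 ± 0.056 (SE, edgeR adjusted p = 0.0247), a call lost without horse serum library 1, 2 or 3 or STEM library 9, 11 or 12. Itgav, Itgb3 and Itgb5, which encode subunits of vitronectin-binding integrins, did not pass, with log2 fold changes of 0.18, 0 and -0.1. Vtn, the gene of vitronectin itself, was barely transcribed, with at most 1 count in any library. Whether the protein was present in either medium was not measured.

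Clearance receptors of the LDL receptor family take up complexes of activators with their inhibitors. Lrpap1, the gene of their chaperone, was the gene of the list called higher, from 114 ± 7.6 to 128 ± 8.2 CPM (SD, n = 6, log2 fold change 0.16 ± 0.055 SE, edgeR adjusted p = 0.0302), a call that was lost with upper quartile scaling, with no filter on low counts and when horse serum library 2 or 5 or STEM library 7, 9 or 10 was left out. Lrp8, the gene of a reelin receptor, was lower, from 6.85 ± 2.13 to 4.06 ± 0.849 CPM (log2 fold change -0.76 ± 0.19 SE, edgeR adjusted p = 0.00677). Lrp1, the main clearance receptor for these complexes, varied widely within both groups, from 268 to 684 CPM with horse serum and from 309 to 813 CPM with STEM, and did not pass (log2 fold change 0.49 ± 0.29 SE, edgeR adjusted p = 0.212).

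Thrombin is a target of protease nexin 1, and both the prothrombin gene F2 and the thrombin receptor gene F2r were lower with STEM. With F3 and F2rl1, which were listed beside them, 3 of these 4 genes were lower, where 17.4% of all genes tested were. The coagulation factor gene F12, listed under another role and low in counts, went the other way when no filter was set. F2r, the gene of the thrombin receptor PAR1, went from 221 to 259 CPM with horse serum to 148 to 164 CPM with STEM. The groups did not overlap, and the log2 fold change was -0.63 ± 0.05 (SE, edgeR adjusted p = 4.38e-07). F2, the gene of prothrombin, was low, at 6.99 ± 2.35 and 3.6 ± 0.746 CPM (SD, n = 6, log2 fold change -0.94 ± 0.25 SE, edgeR adjusted p = 0.00883), and was not called by limma-voom. Horse serum library 6 had 2.56 CPM of F2, the other horse serum libraries 6.87 to 9.39 CPM and the STEM libraries 2.75 to 4.48 CPM. Without library 6 the log2 fold change of F2 was -1.12 ± 0.13 (SE, edgeR adjusted p = 1.37e-06). F3, the gene of tissue factor, the receptor of factor VII, showed a log2 fold change of -0.46 ± 0.14 (SE, edgeR adjusted p = 0.0157). F2rl1, the gene of PAR2, a receptor related to PAR1, had 1.59 ± 0.635 and 1.05 ± 0.155 CPM and did not pass (adjusted p = 0.0783 in edgeR).

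Other serpin genes were described with 58 symbols, of which 54 are outside the pathway list and 18 passed the filter on low counts. Of these, 6 were called, 3 higher and 3 lower with STEM, a share of 33.3% beside the 36.4% of all genes tested. Without horse serum library 6 the count was 9, 3 higher and 6 lower, a share of 50% beside 50.8%. Serpinh1, which encodes the collagen chaperone HSP47, was higher, from 1010 ± 46.4 to 1300 ± 75.1 CPM (SD, n = 6, log2 fold change 0.37 ± 0.051 SE, edgeR adjusted p = 6.8e-05). Serping1, the gene of the C1 inhibitor, was lower, from 22.7 ± 5.01 to 13.6 ± 1.49 CPM (log2 fold change -0.73 ± 0.14 SE, edgeR adjusted p = 0.00101). After these, the lowest p-values were those of Serpina6, the gene of corticosteroid-binding globulin, at 0.51 ± 0.228 and 1.13 ± 0.265 CPM on at most 25 counts per library (log2 fold change 1.17), Serpinb6b (log2 fold change -0.53) and Serpinb9c (log2 fold change 0.41). Serpinb6b and Serpinb9c have close copies in the genome, so their counts may be split among them.

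The genes most like each called gene were found by the root mean square difference of log2 CPM over the 12 libraries, after each gene was centred on its horse serum mean. Nearest to Plat were Btbd17, at a difference of 0.1, and Mgll at 0.12, with log2 fold changes of 0.89 and 0.81. Nearest to Plau were Dynlt3 at 0.0833 and Cdh13 at 0.0846, with log2 fold changes of -0.45 and -0.44. Psmb2 at 0.0355 and Cmpk1 at 0.0435 were nearest to Serpinf1, with log2 fold changes of 0.19 and 0.16. The measure favours highly counted genes, and with 12 libraries in 2 groups it reflects mostly the difference between groups and the position of library 6.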

How the data were processed

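The authors deposited raw read counts per Ensembl gene for 12 stranded, ribosomal RNA-depleted total RNA libraries. The submitters' processing notes name STAR 2.7.3a, featureCounts 1.6.3, DESeq2 1.26.0 and build GRCm38. The annotation release and strand setting are not given in the sources used here. Groups and library numbers came from the sample labels. Symbols, positions and exon lengths came from GENCODE M21, which held 55227 of the 55487 listed genes. Counts were tested with edgeR 4.0.16 in R 4.3.3 (TMM, filterByExpr, robust quasi-likelihood F-test), which kept 14175 genes. P-values were adjusted over these by the Benjamini-Hochberg method, with a call at 0.05 or less. CPM and RPKM use TMM-normalised totals, and log2 CPM a prior count of 2. Standard errors of edgeR were derived from the log2 fold change and the F statistic of the test. Intervals of log2 fold changes use this standard error and 10 residual degrees of freedom. The F-test uses moderated degrees of freedom, so an interval and its p-value need not match exactly.

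The study used DESeq2, which here (version 1.42.0) was an alternative, beside limma-voom (limma 3.58.1), other scalings, other filters, thinning to the lowest total and leaving out each library. Pairs of libraries within a group had a chi-square per degree of freedom of 3.63 to 78.7, so none looked like a repeat deposit. The members, the lists and the tests were chosen with earlier results of these data known. The text names the members, the called genes of the pathway list, genes of roles without a call, the 5 other serpins with the lowest p-values among called genes, the 2 genes most like each called member and the markers. Eno1, Vldlr, Plgrkt, Lrp1, F2rl1, the uncalled integrins and the untested pathway genes were named after their values were seen. An item of the planned lists is not reported here.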

Additional observations from a re-analysis of the deposited data

Results flagged for a closer look

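In each group of 6 libraries, the gap between an extreme library and its nearest neighbour was set against the whole range of the group, with a limit of 0.625. Of 36 sets of 6 values examined (the 5 genes, the called pathway genes and 2 ratios of RPKM, in each group), 9 passed this limit, and chance alone flags about 1 set in 20.

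Horse serum library 6 accounted for 5 of the 9. It was high for Plaur, at 10.4 CPM against 4.89 to 6.16 in the other horse serum libraries, for Serpine2, at 18.5 CPM against 7.73 to 10.4, and for Srpx2, at 196 CPM against 132 to 149. It was low for Itgb1, at 1110 CPM against 1250 to 1330, and for F2, at 2.56 CPM against 6.87 to 9.39.

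The tissue factor gene F3 was high in horse serum library 1, at 10.4 CPM against 6.46 to 7.14, and in STEM library 8, at 7.13 CPM against 4.67 to 5.36. F2r reached 164 CPM in STEM library 7 against 148 to 153, and Lrp8 reached 5.69 CPM in STEM library 11 against 3.29 to 4.12.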

How the results depend on the processing

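Over the 8 alternatives of scaling, filter, test and depth, the log2 fold changes of Plat (0.84 to 0.88), Plau (-0.47 to -0.42) and Serpinf1 (0.18 to 0.22) kept their call and Plaur (-0.41 to -0.34) stayed uncalled. Serpine2 (0.43 to 0.48) became called with the DESeq2 Wald test (0.45, adjusted p = 0.037) and with limma-voom (0.48, adjusted p = 0.0337), and stayed uncalled under the other 6. When libraries were left out singly, the ranges were 0.83 to 0.9 for Plat, -0.52 to -0.41 for Plau, -0.43 to -0.16 for Plaur, 0.37 to 0.68 for Serpine2 and 0.18 to 0.23 for Serpinf1. The 0.68 of Serpine2, without horse serum library 6, was its only call among these. Called genes numbered 4459 to 7245 over all genes, 8 to 13 in the pathway list and 5 to 9 among the other serpins with a library left out, and 4648 to 5321, 10 to 12 and 5 to 7 under the other alternatives. The other scalings moved the median log2 fold change of all genes by -0.0202 to 0.0191. No paired analysis was possible because the labels number the libraries 1 to 12 and the groups share no number. Of the called pathway genes, Anxa2, Lrpap1, Itgb1 and F2 lost their call under some alternative, and the other 7 kept it under all 20. Among the 5 genes, depth limits Plaur most, at 65 to 202 counts per library.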

Other observations

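Horse serum library 6 did not lie between the groups in the same way for every gene of the system. For Plau (78.2 CPM) and Serpinf1 (368 CPM) it was inside the range of the STEM libraries. For Plaur and Serpine2 it was above every library of both groups. For Plat it was the lowest of all 12 libraries, at 90.8 CPM, on the side away from STEM.

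Of the markers of myoblasts and satellite cells, Vcam1 (101 ± 5.04 and 57.9 ± 5.39 CPM with horse serum and STEM, mean ± SD, n = 6) and Myf5 (18.1 ± 2.14 and 13.5 ± 1.1 CPM) were lower with STEM, Cdh15 (349 ± 57.7 and 481 ± 23.6 CPM) was higher, and Pax7 (33.3 ± 3.9 and 32.4 ± 5.78 CPM) did not pass edgeR's test. Of 5 fibroblast markers, Dpt was higher with STEM (3 ± 0.912 and 6.36 ± 1.3 CPM), Dcn (7.97 ± 1.96 and 7.26 ± 1.02 CPM) and Pdgfra (13.8 ± 5.55 and 18.4 ± 1.16 CPM) did not pass, and Lum and Tcf21 stayed below 1 CPM in every library. Horse serum library 6 had 24.8 CPM of Pdgfra against 9.32 to 13.1 in the others, and without it Pdgfra was called higher with STEM (log2 fold change 0.67, edgeR adjusted p = 2.48e-06). Whether these markers came from separate cells was not tested, nor was their part in the levels of the plasminogen activator genes.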
